A study of Solanum lycopersicum with 6 samples.

Results

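The genes described here are those whose deposited description names a protein family of phosphate acquisition, recycling or signalling, and 91 of the 35768 listed tomato genes met that rule. They comprise 17 genes described as SPX domain proteins, 11 as PHO1 phosphate transporters, 4 as inorganic phosphate transporters, 51 as purple acid phosphatases, 3 as glycerophosphodiester phosphodiesterases, 3 as monogalactosyldiacylglycerol (MGDG) synthases and 2 as sulfoquinovosyldiacylglycerol 2. The values come from RNA sequencing of tomato (Solanum lycopersicum) roots, from plants 20 days old of wild type and of the slszp1 mutant. Each genotype has 3 libraries, labelled as biological replicates. Both genotypes were treated with 60 µM aluminium (Al) at pH 4.7. SZP1 belongs to the C2H2 zinc finger proteins and is known to bind STOP1, a factor for tolerance of Al and low pH, and the comparison asks which root transcripts differ when it is mutated. The labels give neither the mutant allele nor the number of independent lines, and no description in the table names SZP1, so the genotype labels were not checked against the targeted gene. Plants without Al and plants short of phosphate were not analysed here, so every difference is one between genotypes under Al, and whether a given gene answers to phosphate supply was not examined.

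Phosphate is scarce in acid soils, where Al binds it, and plants short of it turn on a shared set of genes. SPX domain proteins bind inositol pyrophosphates and hold back the PHR transcription factors while phosphate is plentiful. In starvation, PHR factors switch on transporters that take up phosphate, PHO1 proteins that load it into the xylem, secreted and vacuolar purple acid phosphatases that free it from organic compounds, and enzymes that break down phospholipids and replace them with galactolipids and sulfolipids.

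The values were taken as TPM, a transcript level divided by transcript length and scaled to a fixed total, which keeps no sequencing depth. In all, 17702 genes reached 1 TPM in at least 3 of the 6 libraries and were tested. A gene under 1 TPM in every library of 1 genotype was tested only where all 3 libraries of the other reached 1 TPM. For such a gene, the lack of overlap was set by this filter. Levels below are TPM with the mean ± SD over n = 3 libraries, and changes are differences in log2(TPM + 1), mutant minus wild type, with the standard error (SE). On this scale the change of weakly expressed genes comes out too small. "Rose" and "fell" are used where the Benjamini-Hochberg adjusted p from limma, over all tested genes, was under 0.05. Values of 3 libraries are listed in the order of replicates 1, 2 and 3. Genes described as Casparian strip membrane proteins, which mark the root endodermis, summed to 37.0 to 39.5 TPM in the mutant libraries and 32.1 to 37.8 TPM in wild type, and those of light harvesting and the small RuBisCO subunit, 41 genes that mark leaves, to 42.5 to 50.2 and 47.9 to 63.6 TPM. Genes described as phloem or sieve element proteins, a list of 21 of which 13 were tested, summed to 135 to 149.7 TPM in the mutant and 163 to 218.5 TPM in wild type, with 3 higher and 4 lower in the mutant and a median change of -0.43, beside 8.71% higher and 10.5% lower among all tested genes. Of the leaf genes 11 were tested, 0 were higher and 2 lower, with a median change of -0.17, and 11 were at 0 throughout. Their part in the results below was not tested. The single gene on the xylem list was at 0 in every library, the 2 root cap genes summed to 1.69 to 6.36 TPM, and the 8 root hair genes to 125.6 to 171 TPM.

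Of the 91 phosphate genes, 38 were tested, 23 lay above 0 but below the expression minimum, and 30 were listed at 0 in every library. The mutant showed 3 of the 38 higher and 7 lower, which is 26.3% changed beside 19.2% of all tested genes. The share that rose was 7.89% beside 8.71% of all tested genes, and the share that fell was 18.4% beside 10.5%. Changes were negative for 31 of the 38 members and for 50% of all tested genes, and the median change was -0.39 beside -0.00048. With quantile normalization 29 of the 38 were negative, the sign having turned for 4 members whose changes were close to 0. In 16 members (42.1%) every mutant library lay below every wild type library, beside 20.2% of all tested genes, and in 3 (7.89%) every mutant library lay above, beside 18.2%. Among the 16 are Solyc06g069350.2, Solyc07g008570.3 and Solyc09g009610.2, which met the expression minimum only through wild type, so the filter set their lack of overlap. Lower levels in bulk roots can come from fewer cells of a type or from less RNA per cell, and these cannot be told apart.

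The number that fell depended on single libraries, although no changed member reversed. It was 2 without mutant replicate 1 or mutant replicate 2, 4 without mutant replicate 3, and 3 where wild type replicate 1 or wild type replicate 3 was left out. Without wild type replicate 2 it was also 7, but only 4 of these were among the 7 called with all libraries. The number that rose was 2 or 3 without any single library. Called in every alternative tried were 3 genes, the MGDG synthase gene Solyc07g007620.3 and the purple acid phosphatase genes Solyc07g008550.3 and Solyc07g008570.3. The other 7 lost their call in at least 1 alternative.

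**Figure D1:**
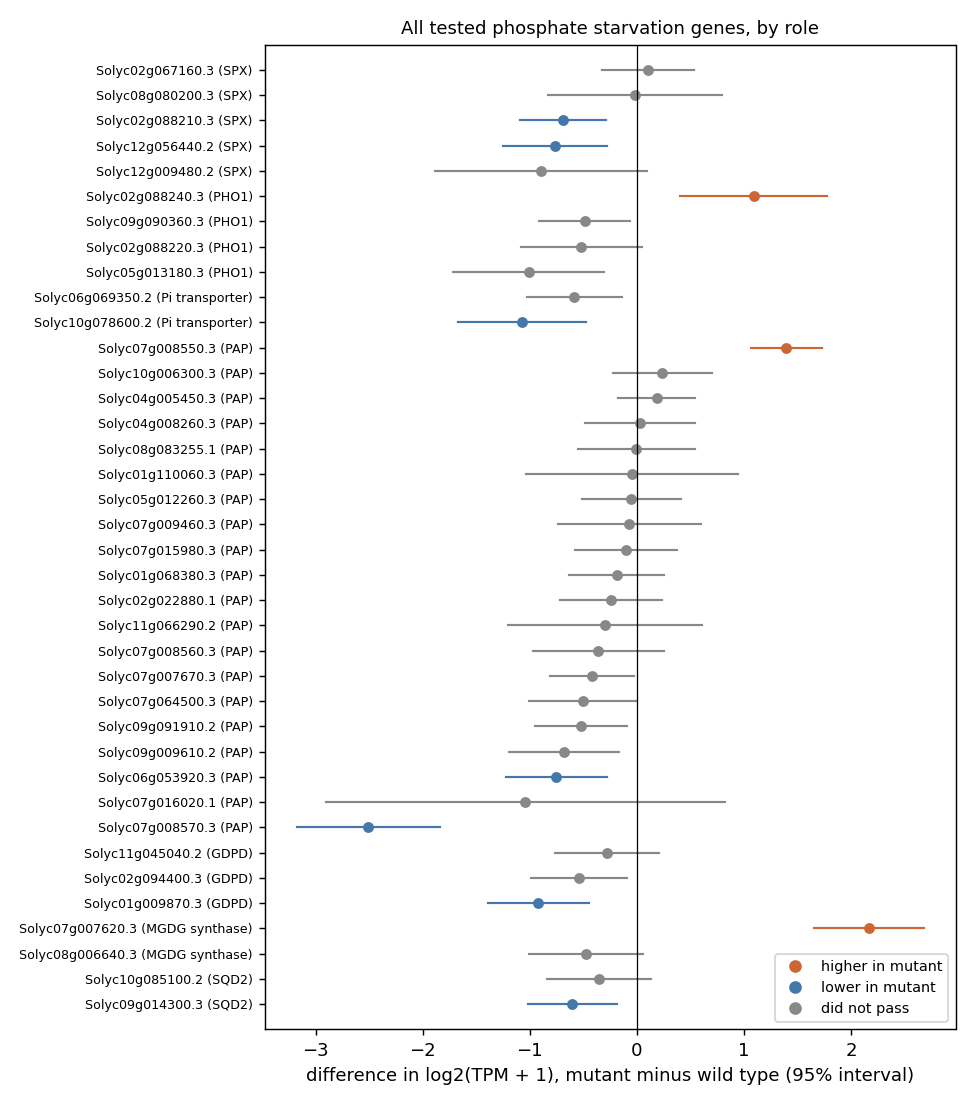
Difference in log2(TPM + 1) between mutant and wild type (horizontal axis, mutant minus wild type) for the 38 tested genes, grouped by role, with the 95% interval from limma as a line. The 3 genes that rose are orange, the 7 that fell are blue and the 28 that did not pass are grey, and 31 of the 38 points lie left of 0.

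SPX domain proteins act as sensors of phosphate status. Of the 5 tested SPX genes 2 fell and 0 rose, beside 10.5% and 8.71% of all tested genes, while 12 of the 17 were not tested, 7 of them at 0 throughout. Solyc02g088210.3 held 12.38, 10.95 and 12.81 TPM across the wild type libraries and 7.55, 5.95 and 7.9 TPM across the mutant libraries. The genotypes did not overlap, and the wild type libraries lay close together. Its change was -0.69 (SE 0.18, limma adjusted p = 0.0270). Solyc12g056440.2 held 16.91, 10.84 and 17.83 TPM across the wild type libraries and 7.66, 8.33 and 9.1 TPM across the mutant libraries. Wild type replicate 2 was the lowest of its group and still lay above every mutant library, and the change was -0.76 (SE 0.21, limma adjusted p = 0.0371). Both calls depended on single libraries. For Solyc02g088210.3 the adjusted p was 0.0161 to 0.102 over the alternatives, and of the 6 fits that leave out 1 library, only those without mutant replicate 3 or wild type replicate 2 kept the call. For Solyc12g056440.2 it was 0.00708 to 0.130, and of these 6 fits only that without wild type replicate 2 kept the call. It was also lost with no filter on low values (0.0630) and with the replicate number as a block (0.0565).

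Among the other SPX genes the spread within a genotype was as wide as the difference between genotypes. Solyc12g009480.2 held 8.31, 15.65 and 5.64 TPM across the wild type libraries and 6.01, 2.19 and 6.17 TPM across the mutant libraries. Its groups overlapped through wild type replicate 3, and the 95% interval of the change was -1.88 to 0.09. Solyc02g067160.3, whose description rests on the same poplar protein as that of Solyc02g088210.3, had 7.53 ± 0.373 TPM in wild type roots and 8.25 ± 1.67 TPM in mutant roots, and its interval was -0.32 to 0.53. Solyc08g080200.3 was low, at 1.7 ± 1.49 TPM in wild type roots and 1.44 ± 0.223 TPM in mutant roots. Of the 5 SPX genes that were above 0 but below the expression minimum, Solyc01g091870.3 held 0, 0 and 0.04 TPM across the wild type libraries and 0.09, 0.35 and 0.76 TPM across the mutant libraries. All 3 mutant libraries were above all wild type libraries, for which the gene was named, at levels too low to test. Summed over the 17 genes, SPX transcripts came to 45.75, 48.2 and 45.96 TPM across the wild type libraries and 29.74, 25.63 and 35.91 TPM across the mutant libraries. The sum thus lay lower in each mutant library than in each wild type library.

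Genes described as inorganic phosphate transporters, whose family takes up phosphate at the root surface or moves it between compartments, were weakly expressed. Of 4 genes, 2 were tested, and 1 fell and 0 rose, beside 10.5% and 8.71% of all tested genes. Solyc10g078600.2, named after a rice transporter by a match that meets only part of the description's quality marks, held 7.14, 7.94 and 3.97 TPM across the wild type libraries and 1.95, 2.77 and 2.49 TPM across the mutant libraries. The groups did not overlap, wild type replicate 3 being nearest to the mutant. The change was -1.07 (SE 0.26, limma adjusted p = 0.0229), and the adjusted p was 0.00968 to 0.0833 over the alternatives, the highest without wild type replicate 1. The call was also lost without mutant replicate 1, mutant replicate 3 or wild type replicate 2, with adjusted p of 0.0768, 0.0580 and 0.0515. Solyc06g069350.2, described as a low-affinity transporter, held 1.76, 1.79 and 1.59 TPM across the wild type libraries and 0.72, 0.84 and 0.88 TPM across the mutant libraries, and did not pass (limma adjusted p = 0.0728). Its groups did not overlap, but it met the expression minimum only through its wild type libraries, so the filter set this. The gene described as the mycorrhiza-inducible transporter 4 (Solyc06g051860.3), of a type induced where fungi colonise roots, stayed at 0.32 TPM or less in every library, and Solyc01g034085.1, described as chloroplastic, was at 0 in all.

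The description rule missed genes worded only as phosphate transporters, and these were gathered after the values had been seen. There were 22 of them, of which 12 were tested, and 1 rose and 3 fell, beside 8.71% and 10.5% of all tested genes. The most abundant changed one is described as phosphate transporter 1 (Solyc09g090070.1), a name given in tomato to a root uptake transporter of the PHT1 family, and it held 61.9, 66.54 and 79.44 TPM across the wild type libraries and 37.61, 27.51 and 30.01 TPM across the mutant libraries. Every mutant library was lower, by a change of -1.11 (SE 0.17, limma adjusted p = 0.00275), and the call held in every alternative. Its neighbour in the table, Solyc09g090080.1, went the other way, at 0.51, 0.59 and 0.87 TPM across the wild type libraries and 2.28, 2.46 and 2.93 TPM across the mutant libraries, with a change of 1.10 (SE 0.21, limma adjusted p = 0.00746). Reads of neighbouring transporter genes can be split between them, so the lower value is uncertain. Solyc02g084220.3, described as sodium-dependent, fell from 24.9 ± 1.41 to 16.2 ± 1.08 TPM (limma adjusted p = 0.0215), and Solyc09g066410.2 from 2.29 ± 1.17 to 0.273 ± 0.238 TPM (limma adjusted p = 0.0223). The first call was lost without any single library other than wild type replicate 2 (adjusted p up to 0.0730). The second was lost without mutant replicate 1, mutant replicate 3 or wild type replicate 1 (up to 0.0761) and with the replicate number as a block (0.0677). Solyc09g066410.2 met the expression minimum only through its wild type libraries, and Solyc09g090080.1 only through its mutant libraries. Solyc09g013150.3 did not pass, at 57.5 ± 17.7 TPM in wild type roots and 49.8 ± 8.78 TPM in mutant roots.

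PHO1 proteins carry an SPX domain and export phosphate from root cells towards the xylem. Of the 11 PHO1 genes, 4 were tested, and 1 rose and 0 fell, beside 8.71% and 10.5% of all tested genes. The one that rose, Solyc02g088240.3, held 3.55, 2.81 and 2.21 TPM across the wild type libraries and 5.34, 5.63 and 11.85 TPM across the mutant libraries. Mutant replicate 3 was the highest by a wide margin, and all mutant libraries lay above wild type. The change was 1.09 (SE 0.30, limma adjusted p = 0.0364). That call was lost in 7 of 11 alternatives, namely without any single library other than mutant replicate 1 (adjusted p up to 0.104), with no filter on low values (0.0689) and with the replicate number as a block (0.0894).

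The remaining tested PHO1 genes had negative changes and did not pass. The most abundant, Solyc02g088220.3, held 39.09, 24.08 and 47.02 TPM across the wild type libraries and 21.14, 23.99 and 28.77 TPM across the mutant libraries. Wild type replicate 2 sat among the mutant libraries, and without it the gene fell, with a limma adjusted p of 0.0192 beside 0.188 with all libraries. No other alternative gave a call for this gene, with limma adjusted p up to 0.432. Solyc05g013180.3 held 10.06, 17.91 and 21.9 TPM across the wild type libraries and 8.5, 5.14 and 9.08 TPM across the mutant libraries, lower in each mutant library, with a limma adjusted p of 0.0536. Without wild type replicate 1, the lowest of its group, the adjusted p was 0.0168. No other alternative gave a call, with limma adjusted p up to 0.153. Solyc09g090360.3 also did not overlap, at 13.7 ± 1.07 TPM in wild type roots and 9.56 ± 1.86 TPM in mutant roots, with a limma adjusted p of 0.107.

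On chromosome 2, as numbered by the gene identifiers, 3 of the PHO1 genes follow directly on the SPX gene Solyc02g088210.3. In this run of 4 genes the first fell, the next did not pass, Solyc02g088230.3 stayed at 0.18 TPM or less in every library, and the last rose. The 3 PHO1 descriptions rest on the same cotton protein. Solyc02g088240.3 made up 20.2%, 18.9% and 29.1% of their summed level in mutant replicates 1, 2 and 3 and 8.31%, 10.4% and 4.47% in wild type. The sum itself overlapped between genotypes, at 39.7 ± 11.5 TPM in wild type roots and 32.3 ± 7.46 TPM in mutant roots.

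Purple acid phosphatases are metal-containing enzymes, many of them secreted, that release phosphate from organic esters. This was the largest family, with 51 genes of which 20 were tested, and 1 rose, 2 fell and 17 did not pass. The share changed was thus 15%, beside 19.2% of all tested genes. Solyc07g008550.3 rose, with 31.99, 30.62 and 26.5 TPM across the wild type libraries and 73.31, 77.57 and 88.57 TPM across the mutant libraries. Each group was narrow and the mutant mean was 2.69 times that of wild type. The change was 1.40 (SE 0.15, limma adjusted p = 0.000489), and over the alternatives the adjusted p was 0.000545 to 0.00651.

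The gene 2 places further in the table, Solyc07g008570.3, fell. It held 3.81, 3.56 and 8.13 TPM across the wild type libraries and 0, 0 and 0.09 TPM across the mutant libraries, so that its transcript was all but absent from the mutant libraries. It met the expression minimum only through its wild type libraries. Its change was -2.51 (SE 0.29, limma adjusted p = 0.000806), and no ratio is given because 2 mutant libraries were listed at 0. Between them lies Solyc07g008560.3, the most abundant purple acid phosphatase gene, with 353.08, 196.9 and 375.58 TPM across the wild type libraries and 238.41, 273.36 and 189.77 TPM across the mutant libraries. It overlapped through wild type replicate 2 and did not pass (limma adjusted p = 0.399). Without that library it fell, with an adjusted p of 0.0432. No other alternative gave a call, with limma adjusted p up to 0.708.

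These 3 adjacent genes on chromosome 7 had the same best protein match, so reads may be divided among them and the single levels are uncertain. Their sum was 388.88, 231.08 and 410.21 TPM across the wild type libraries and 311.72, 350.93 and 278.43 TPM across the mutant libraries, and the genotypes overlapped. Solyc07g008550.3 took 23.5%, 22.1% and 31.8% of it in the mutant and 8.23%, 13.3% and 6.46% in wild type. Solyc07g008570.3 took 0.98%, 1.54% and 1.98% in wild type and 0.03% or less in the mutant. In the listed values the makeup of the run therefore differed between genotypes in every library, while its total did not separate them. The shares are as uncertain as the single levels they come from.

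**Figure D2:**
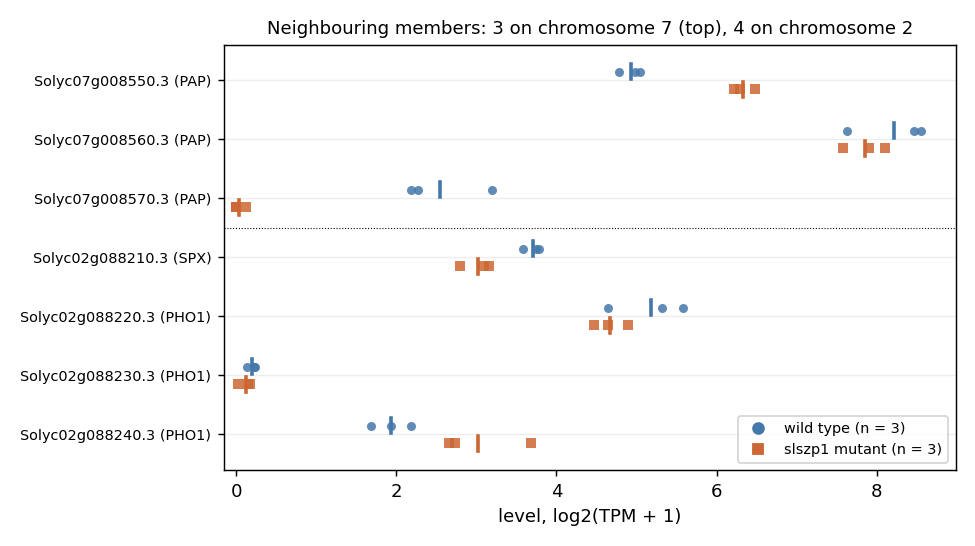
Levels in log2(TPM + 1) of neighbouring genes in each of the 3 wild type libraries (circles) and 3 mutant libraries (squares), with short lines for the means. In the upper run on chromosome 7, Solyc07g008550.3 is higher and Solyc07g008570.3 lower in all mutant libraries while the gene between overlaps; in the lower run on chromosome 2, Solyc02g088210.3 is lower and Solyc02g088240.3 higher.

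The third changed member counted in the family is Solyc06g053920.3. It is described as an inactive purple acid phosphatase-like protein. That match meets only part of the description's quality marks, so its place in the family is uncertain. Solyc06g053920.3 held 4.24, 4.36 and 3.28 TPM across the wild type libraries and 1.91, 1.64 and 2.29 TPM across the mutant libraries. The groups did not overlap, and the change was -0.75 (SE 0.21, limma adjusted p = 0.0358). That call was lost in 6 of 11 alternatives, namely when any library other than mutant replicate 3 was left out (adjusted p up to 0.122) and with the replicate number as a block (0.0884). The 17 tested phosphatases that did not pass had mean levels from 1.03 to 271 TPM and changes from -1.04 to 0.24. In 4 of them every mutant library lay below every wild type library, beside 20.2% of all tested genes, whether these passed or not. The 95% interval of the change held 0 in 13 of the 17. One of the more abundant, Solyc04g005450.3, had 48.9 ± 7.3 TPM in wild type roots and 55.5 ± 4.98 TPM in mutant roots, with an interval of -0.17 to 0.54.

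Several further phosphatase genes did not pass or were too low to test. The gene described as purple acid phosphatase 29 (Solyc11g066290.2) held 5.42, 16.89 and 5.3 TPM across the wild type libraries and 5.83, 5.97 and 7.2 TPM across the mutant libraries, so that wild type replicate 2 alone was high. Solyc03g123710.3 is described by a partial match as purple acid phosphatase 17, a starvation marker in Arabidopsis. It was below the minimum at 1.17, 0.92 and 0.7 TPM across the wild type libraries and 0.34, 0.6 and 0.64 TPM across the mutant libraries. On chromosome 9, Solyc09g009600.2 was also below the minimum, with 1.63, 0.72 and 2.17 TPM across the wild type libraries and 0.15, 0.11 and 0.09 TPM across the mutant libraries. Both were lower in all mutant libraries, and both were named because their groups did not overlap. Of the 23 members above 0 but below the minimum, 4 did not overlap, 2 higher and 2 lower in the mutant. The gene beside the latter, Solyc09g009610.2, held 1.09, 1.65 and 1.76 TPM across the wild type libraries and 0.62, 0.35 and 0.7 TPM across the mutant libraries and did not pass (limma adjusted p = 0.0677). The low-quality model Solyc07g016020.1 had the largest SE of any tested member on the log2(TPM + 1) scale, with 48.76, 5.17 and 18.16 TPM across the wild type libraries and 12.26, 6.11 and 6.18 TPM across the mutant libraries, and the interval of its change was -2.90 to 0.82. Without wild type replicate 2 it fell, with a limma adjusted p of 0.0373, and no other alternative gave a call. Without wild type replicate 1, its highest library, the change was -0.31 (limma adjusted p = 0.782).

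Lipid remodelling frees phosphate from membranes, and the genes of its steps went in different directions. Glycerophosphodiester phosphodiesterases split the head groups of stripped phospholipids into glycerol 3-phosphate and an alcohol. All 3 genes were tested, and 1 fell, beside 10.5% of all tested genes. Solyc01g009870.3 held 10.83, 16.69 and 11.78 TPM across the wild type libraries and 7.31, 6.15 and 5.67 TPM across the mutant libraries. The groups did not overlap, and the change was -0.92 (SE 0.21, limma adjusted p = 0.0161). The call was lost without mutant replicate 2 (0.0532) or mutant replicate 3 (0.0504). Solyc02g094400.3 was the most abundant of all 91 genes, with 349.36, 524.33 and 374.3 TPM across the wild type libraries and 293.37, 245.96 and 307.09 TPM across the mutant libraries. It too was lower in every mutant library, but wild type replicate 2 was far above the others, and the change of -0.54 (SE 0.20) did not pass (limma adjusted p = 0.0918). Solyc11g045040.2 had 3.45 ± 0.262 TPM in wild type roots and 2.7 ± 0.661 TPM in mutant roots and did not pass.

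MGDG synthases make the galactolipid from which digalactosyldiacylglycerol, the lipid that replaces phospholipids in starved plants, is built. Of 3 genes, 2 were tested and 1 rose, beside 8.71% of all tested genes. Its change was the largest positive one among the 38 tested members. Solyc07g007620.3 held 1.56, 1.09 and 1.63 TPM across the wild type libraries and 8.36, 8.85 and 12.89 TPM across the mutant libraries. The mutant mean was 7.03 times that of wild type and the lowest mutant library lay far above the highest wild type library. Its change was 2.17 (SE 0.23, limma adjusted p = 0.000478), and over the alternatives the adjusted p was 0.000456 to 0.00485. The other tested synthase gene, Solyc08g006640.3, held 7.05, 6.72 and 4.11 TPM across the wild type libraries and 3.4, 3.79 and 4.61 TPM across the mutant libraries, with a change of -0.48 (SE 0.23) that did not pass. Solyc12g009820.2 reached 0.74 TPM at most and was not tested. In the wild type libraries Solyc08g006640.3 was thus the more abundant synthase transcript, and in the mutant libraries Solyc07g007620.3 was.

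Sulfolipid synthesis supplies an acidic lipid without phosphorus, and both genes described as sulfoquinovosyldiacylglycerol 2, after the Arabidopsis enzyme of the last step, were tested. Solyc09g014300.3 held 23.15, 25.14 and 26.43 TPM across the wild type libraries and 13.5, 15.01 and 20.41 TPM across the mutant libraries. Mutant replicate 3 came closest to wild type without reaching it. The change was -0.60 (SE 0.18, limma adjusted p = 0.0498), just under the threshold, and over the alternatives the adjusted p was 0.0201 to 0.165. The call was lost in 7 of 11, namely when any library other than mutant replicate 3 was left out, with a pseudocount of 0.1 and with no filter on low values. Solyc10g085100.2 held 1.65, 1.99 and 1.75 TPM across the wild type libraries and 0.83, 1.49 and 1.29 TPM across the mutant libraries and did not pass.

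**Figure D3:**
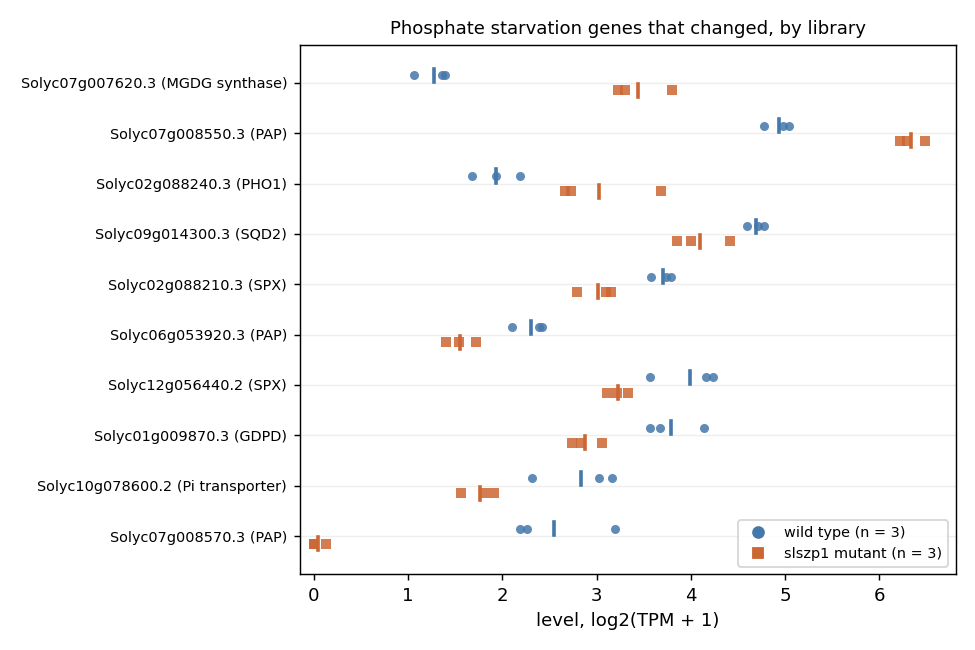
Levels in log2(TPM + 1) of the 10 genes that changed, in each of the 3 wild type libraries (circles) and 3 mutant libraries (squares), with short lines for the means and genes ordered by their change. The groups do not overlap in any of the 10 genes, beside 38.5% of all tested genes without overlap. The 10 were picked by adjusted p from these same values, so this adds no support. The gap is widest at the top for Solyc07g007620.3, which rose, and at the bottom for Solyc07g008570.3, which fell. The latter met the expression minimum only through wild type, so the filter set its lack of overlap.

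Detection differed with how well a member's description was matched. Of the 49 members whose description carries the full set of match marks, 33 were tested and 3 were at 0 throughout. Of the 41 with partial marks, 5 were tested and 27 were at 0 throughout, and 1 member carries no marks. Chromosome 7 held the most members, 17, of which 9 were tested, and chromosome 4 held 13, of which 2 were tested. Of the 23 members above 0 and below the minimum, 13 stayed under 0.5 TPM in every library, and no value was above 2.17 TPM. Summed over all 91 genes, the level was 1221 ± 45.6 TPM in wild type roots and 972.6 ± 30.9 TPM in mutant roots, without overlap. Much of that gap lay in the most abundant pair, Solyc02g094400.3 and Solyc07g008560.3, neither of which passed. Without the 2 the sums overlapped, at 503.32, 464.22 and 522.64 TPM across the wild type libraries and 446.53, 420.01 and 503.42 TPM across the mutant libraries. The summed level of the purple acid phosphatases, the largest family, overlapped too, at 629 ± 123 TPM in wild type roots and 565.7 ± 20.4 TPM in mutant roots.

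Other genes of phosphate metabolism, listed by wording apart from the 91, held 94 genes of which 57 were tested, and 3 rose and 14 fell. Those shares were 5.26% and 24.6%, beside 8.71% and 10.5% of all tested genes, and the median change was -0.24. The pattern for acid phosphatase also took in phosphatidic acid phosphatases and that for phospholipase D took in 3 patatin-like phospholipase genes, so the list is broader than its purpose. Of the 14 that fell, 5 are neighbours on chromosome 4 described as phosphate-responsive or phosphate-induced, treated below, and 2 are patatin-like genes. The number that rose was 1 without mutant replicate 3 or wild type replicate 1, and 5 without wild type replicate 2. The PHR factors are the regulators that SPX proteins bind, and Solyc01g095305.1, described by a partial match as PHOSPHATE STARVATION RESPONSE 2, was the only one of 3 such genes tested. It held 7.29, 10.87 and 5.86 TPM across the wild type libraries and 0.19, 1.55 and 0.92 TPM across the mutant libraries. All mutant libraries lay well below wild type, with a change of -2.29 (SE 0.33, limma adjusted p = 0.00209).

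In lipid remodelling, a digalactosyldiacylglycerol synthase gene (Solyc01g007100.3), which acts next after MGDG synthase, fell while the MGDG synthase gene Solyc07g007620.3 rose. It held 9.01, 9.52 and 9.57 TPM across the wild type libraries and 2.16, 3.5 and 2.64 TPM across the mutant libraries, with a change of -1.48 (SE 0.20, limma adjusted p = 0.00154). The other 4 digalactosyldiacylglycerol synthase genes did not pass. Genes that rose included a non-specific phospholipase C (Solyc09g020190.3), of a family that strips phospholipid head groups, at 66.8 ± 11.1 TPM in wild type roots and 114 ± 15.9 TPM in mutant roots, and a phospholipase D gene (Solyc03g121470.3) at 27.5 ± 4.3 TPM in wild type roots and 45.6 ± 2.42 TPM in mutant roots. Their limma adjusted p were 0.0176 and 0.0135. The first call was lost without mutant replicate 3 (0.0602) and the second when wild type replicate 1 was left out (0.0563). Of the 9 tested phospholipase D genes 1 rose, 1 fell and 7 did not pass, which is 22.2% changed beside 19.2% of all tested genes. The one that fell, Solyc12g011170.2, had 1.62 ± 0.575 TPM in wild type roots and 0.473 ± 0.172 TPM in mutant roots (limma adjusted p = 0.0448). It met the expression minimum only through its wild type libraries. Its call was lost in 9 of 11 alternatives, with limma adjusted p of 0.0352 to 0.139 over all of them. The fits that kept the call were median centring and that without wild type replicate 2. A gene described only as phosphatidic acid phosphatase-related (Solyc03g116740.3) fell from 10.2 ± 0.216 to 3.92 ± 0.713 TPM (limma adjusted p = 0.00281). One for a mitochondrial phosphate carrier (Solyc03g097840.3), of the type that brings phosphate to ATP synthesis, fell from 69.8 ± 18.5 to 27.7 ± 7.62 TPM (limma adjusted p = 0.00914). Of the 11 tested acid phosphatase genes outside the purple family 1 rose, 1 fell and 9 did not pass, which is 18.2% changed beside 19.2% of all tested genes, with Solyc03g121100.3 rising from 0.673 ± 0.344 to 2.34 ± 0.777 TPM and Solyc09g090600.3 falling from 4.73 ± 2.29 to 1.28 ± 0.506 TPM. The first call was lost without mutant replicate 1 or 3 or wild type replicate 1 or 3 (limma adjusted p up to 0.0944) and with the replicate number as a block (0.0763), and the second without mutant replicate 2 or 3 (up to 0.0743).

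The most abundant changed genes of that wider list included those described as phosphate-responsive 1 or phosphate-induced 1 proteins, the EXORDIUM-like family of wall-associated proteins linked to growth in Arabidopsis and named for a phosphate-induced tobacco gene. Of 13, 10 were tested, and 0 rose and 5 fell, beside 8.71% and 10.5% of all tested genes. All 5 lie in a run of 7 neighbours on chromosome 4. Solyc04g074400.1 held 542.46, 350.59 and 773.96 TPM across the wild type libraries and 81.42, 89.43 and 103.33 TPM across the mutant libraries, a change of -2.52 (SE 0.27). Solyc04g074470.1 held 223.24, 254.66 and 246.48 TPM across the wild type libraries and 41.49, 55.71 and 50.62 TPM across the mutant libraries, a change of -2.28 (SE 0.16). In both genes the wild type libraries were several times the mutant ones without overlap, and limma adjusted p were 0.000653 and 6.12e-05. Solyc04g074450.1 fell from 115 ± 16.9 to 30.6 ± 3.14 TPM, Solyc04g074440.1 from 134.8 ± 21.1 to 63.5 ± 5.55 TPM and Solyc04g074420.1 from 127 ± 35.9 to 43.6 ± 20.3 TPM, with limma adjusted p of 0.00016, 0.0026 and 0.0191. The last call was lost without mutant replicate 1 (0.0623) or wild type replicate 1 (0.0598). The remaining genes of the run did not pass. Solyc04g074410.2 held 69.81, 285 and 96.42 TPM in wild type, replicate 2 being the highest. Solyc04g074430.1 had 57.2 ± 32.6 TPM in wild type roots and 94.2 ± 20.7 TPM in mutant roots. It rose without wild type replicate 2 (limma adjusted p = 0.0123). No other alternative gave a call for it, with limma adjusted p up to 0.412. The sum of the 7 was 1249.32, 1386.93 and 1510.21 TPM across the wild type libraries and 400.86, 513.96 and 416.26 TPM across the mutant libraries. It was lower in every mutant library. Reads may be shared within the run or with other genes, so both the single levels and the sum are uncertain.

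**Figure D4:**
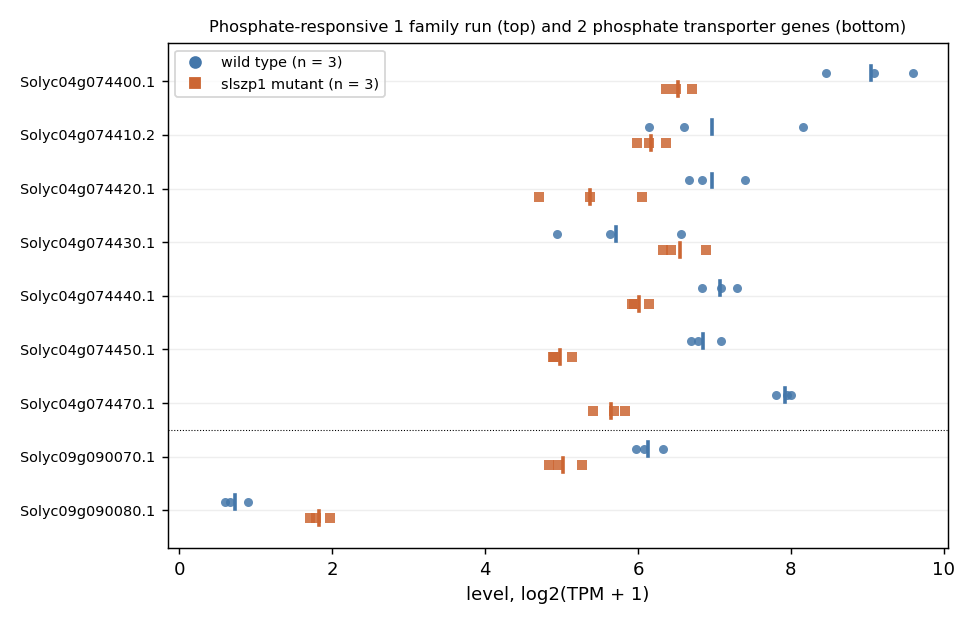
Levels in log2(TPM + 1) in each of the 3 wild type libraries (circles) and 3 mutant libraries (squares), with short lines for the means, for 7 neighbouring phosphate-responsive genes on chromosome 4 (above the dotted line) and for 2 neighbouring phosphate transporter genes on chromosome 9 (below it). In 5 of the 7 upper genes all mutant libraries are below all wild type libraries, beside 20.2% of all tested genes. The lower pair moves in opposite directions. Of this pair, Solyc09g090080.1 met the expression minimum only through its mutant libraries, so the filter set its lack of overlap.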

How the data were processed

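A single deposited table gives each gene's description and its level in every library, without a unit in its header. The 6 columns held 2 decimals and summed to 940694.5 to 974316.37, from which it was inferred that the deposited unit is TPM. Per the submitters' processing notes the tools were TopHat2, HISAT2, StringTie and Cufflinks, with neither version nor role, and no build or annotation release is stated. Depth cannot be read from TPM, so no counting interval is given.

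The 17702 genes that reached 1 TPM in 3 or more of the 6 libraries were compared as log2(TPM + 1) by limma 3.58.1 (trend, robust, with statmod 1.5.0, in R 4.3.3), and p-values were adjusted over all of them by Benjamini-Hochberg. The members and lists were chosen with earlier results of these data known. Members were taken by description. Of the identifiers, 0 were found in RefSeq's gene table, so no sequence or position is printed and chromosomes are those in the identifiers. Named by rule were all changed members, the most abundant of each role, members below the minimum without overlap that reached 0.5 TPM, and the 8 other phosphate genes with the smallest p. Other named genes were chosen after their values were seen. Simulated data with known changes were used to test the fit. Alternatives were a pseudocount of 0.1, no filter, quantile normalization, median centring, a replicate block, a minimum change of 2-fold, leaving out low-quality or partly matched gene models, and leaving out each library. Replicates were not paired.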

Additional observations from a re-analysis of the deposited data

How the results depend on the processing

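Across alternatives, 3 of the 10 changed phosphate genes were called in all 11 fits tried and 7 lost the call in at least 1, and none changed sign. The number that fell was 7. It was 5 without low-quality or partly matched gene models and 2 with a change of at least 2-fold. Without single libraries it was 2 to 7, the lowest without mutant replicate 1 or 2. The number that rose was 3, and 2 to 3 without single libraries. In the other phosphate list 3 rose and 14 fell; with at least 2-fold, 0 rose and 12 fell, and without single libraries 1 to 5 rose and 10 to 16 fell. Over all tested genes 1542 rose and 1865 fell; with at least 2-fold, 911 and 1107, and without single libraries 994 to 1764 and 1131 to 2042. A stricter rule leaves fewer calls by construction, while leaving out a library can move the counts either way. Without wild type replicate 2 the counts were higher over all tested genes and in the other phosphate list, not among the 91, and the cause was not tested. Of 528 alternative values for 48 named genes, 454 kept direction and side of the threshold, 66 lost and 5 gained the call, and 3 changed sign. These were Solyc02g067160.3 without mutant replicate 3, Solyc11g066290.2 without wild type replicate 2 and Solyc09g013150.3 without wild type replicate 2, whose log2 changes ran from -0.039 to 0.20, -0.55 to 0.20 and -0.38 to 0.052 without single libraries, none with a call. With the replicate number as a block 2 members rose and 5 fell, and 1276 and 1499 of all tested genes. Same-numbered libraries had correlations of their deviations across genes of -0.07 to 0.11. Mutant replicates 1, 2 and 3 were closest to wild type replicates 2, 1 and 3, with correlations of 0.10, 0.14 and 0.11. The numbers thus match for replicate 3 only and give no consistent pairing. Absolute depth is unknown, and levels near 1 TPM are uncertain.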

Other observations

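Glycerol-3-phosphate transporter genes, whose Arabidopsis relatives include genes induced by phosphate starvation and which handle the product of the glycerophosphodiester phosphodiesterases, were gathered after their values were seen. Of 8 such genes, 4 were tested, and 1 rose and 2 fell, beside 8.71% and 10.5% of all tested genes. Solyc03g093140.3 held 173.67, 204.19 and 225.27 TPM across the wild type libraries and 75.36, 56.08 and 67.92 TPM across the mutant libraries. Every mutant library was lower, with a change of -1.58 (SE 0.17, limma adjusted p = 0.000548). Solyc06g060910.2 fell too, at 2.89 ± 1.14 TPM in wild type roots and 0.42 ± 0.0608 TPM in mutant roots, with a limma adjusted p of 0.00656. It met the expression minimum only through its wild type libraries, so the filter set that every mutant library was lower. Solyc12g010440.2 rose, with 40.34, 34.38 and 51.92 TPM across the wild type libraries and 89.12, 102.69 and 90.34 TPM across the mutant libraries, a change of 1.15 (SE 0.18, limma adjusted p = 0.00268). These 3 calls held in every alternative tried.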
